A study of Homo sapiens with 33 samples.

Results

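NELF, DSIF and the PAF complex are the protein machines that hold RNA polymerase II near the start of genes and then carry it along them. Their 10 genes were read from the count table by symbol: NELFA, NELFB, NELFCD and NELFE of NELF, SUPT4H1 and SUPT5H of DSIF, and PAF1, CTR9, LEO1 and CDC73 of the PAF complex. All 10 were among the 59428 entries of the table, and all 10 passed the filter on low counts, although SUPT4H1 had only 9 to 47 reads in any library and is described by its counts alone.

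Negative elongation factor (NELF) binds polymerase shortly after initiation and keeps it paused. DSIF, made of SPT4 and SPT5, takes part in that pause and then, once the kinase CDK9 of P-TEFb has phosphorylated SPT5, travels with the polymerase as a positive factor. The PAF complex binds elongating polymerase and is known for its part in histone modification and in elongation through gene bodies.

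The series asked how blocking CDK7 and CDK9, alone or together, changes gene expression in breast cancer cell lines. The lines, spelled MDA-MD-468 and MDA-MD-231 in the labels, are triple-negative breast cancer lines. The inhibitor experiment had 22 libraries: in each line, SY200/V50, V50 and SY200 at 3, 6 and 12 h, against 1 DMSO and 1 untreated parental library entered at 0 h, all with wild-type genotype. The titles of these controls name no time, and there was no control for each of 3, 6 and 12 h. A change against control, or between times of a treatment, thus cannot be told apart from time in culture. The knockout experiment had 11 libraries of MDA-MD-231: CDK7/9 KO, CDK9 KO, CDK7 KO and CDK1 KO at 72 and 96 h, against an empty vector at 72 and 96 h, and a further parental library that entered no test. The labels give neither the kinase that each inhibitor acts on, nor the unit of the numbers in the inhibitors' names, nor whether a knockout is 1 clone or a pool. Each combination of line, treatment and time was 1 library, so the errors rest mainly on how effects differed between lines (inhibitors) or times (knockouts), and separate cultures were not stated. In the tests of a difference between the lines, the errors rest on how that difference varied over the times and between DMSO and parental. The libraries were made by 3′ tag sequencing, in which each poly(A) transcript is read next to its 3′ end, and their counts summed to between 16985219 and 22859779.

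The libraries carried the markers of the line on their labels. The 10 markers listed for MDA-MD-468 had a summed level of 6241 to 9933 CPM (counts scaled to TMM-adjusted library sizes) in the MDA-MD-468 libraries, against 148 to 651 CPM in MDA-MD-231 of the inhibitor experiment. The 10 markers listed for MDA-MD-231 had 1083 to 3210 CPM in MDA-MD-468, against 7986 to 22439 CPM in MDA-MD-231. Immune cell markers summed to at most 20.3 CPM in any library. CDK7 stood at 13.7 to 15.3 CPM in CDK7 KO and at 15.6 to 17.1 CPM in CDK7/9 KO, against 49.0 and 66.5 CPM with the empty vector. CDK9 stood at 33.2 to 36.4 CPM in CDK9 KO and at 34.3 to 36.6 CPM in CDK7/9 KO, against 70.4 and 62.1 CPM with the empty vector. CDK1 stood at 81.7 and 84.3 CPM in CDK1 KO, against 178 and 283 CPM with the empty vector, but also at 84.4 CPM in the parental library of that experiment.

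Under SY200/V50 all 4 PAF genes and NELFA fell, NELFE and NELFCD rose, and NELFB and SUPT5H did not pass the test. LEO1 fell most, 3.98-fold as the mean of 3, 6 and 12 h against the 4 DMSO and parental libraries, followed by NELFA at 2.57-fold. Changes are log2 fold changes of treatment over control from 1 edgeR quasi-likelihood model over both lines, given ± SE, and a gene was called at a Benjamini-Hochberg (BH) adjusted p under 0.05 over all 18911 genes tested. Of the 10 genes, 2 were called higher and 5 lower, against 24% and 24.2% of all genes. The median change was -0.26 over the 10 genes and 0.09 over all genes. In bulk libraries like these, fewer cells of a kind and less RNA per cell cannot be told apart.

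The share of reads from the 13 mitochondrially encoded mRNAs moved with the treatment. It was 7.06% to 13.5% under SY200/V50 in MDA-MD-468, against 3.93% (DMSO) and 3.88% (parental), and 3.21% to 5.05% under SY200/V50 in MDA-MD-231, against 2.51% (DMSO) and 2.17% (parental). V50 gave 7.38% to 7.75% in MDA-MD-468 and 2.88% to 3.82% in MDA-MD-231. SY200 gave 5.66% to 6.67% in MDA-MD-468 but only 2.42% to 2.91% in MDA-MD-231, where the 3 h library lay between the controls. Scaling the libraries to these mRNAs instead of by TMM moved the median of all genes to -1.33 for SY200/V50, -0.92 for V50 and -0.44 for SY200. On that scale all 10 genes were called lower under SY200/V50 and under V50, against 82.8% and 73.8% of all genes. Under SY200 it was 5 of 10, against 27%. The 10 include SUPT4H1, whose reads are too few for its direction to be read. NELFE, NELFCD, SUPT5H and NELFB thus changed sign with the scale under SY200/V50, and every rise given here is a rise relative to the other nuclear genes. Relative to that median of all genes, NELFE stood at 0.57, NELFCD at 0.43, LEO1 at -2.09 and NELFA at -1.46.

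**Figure D1:**
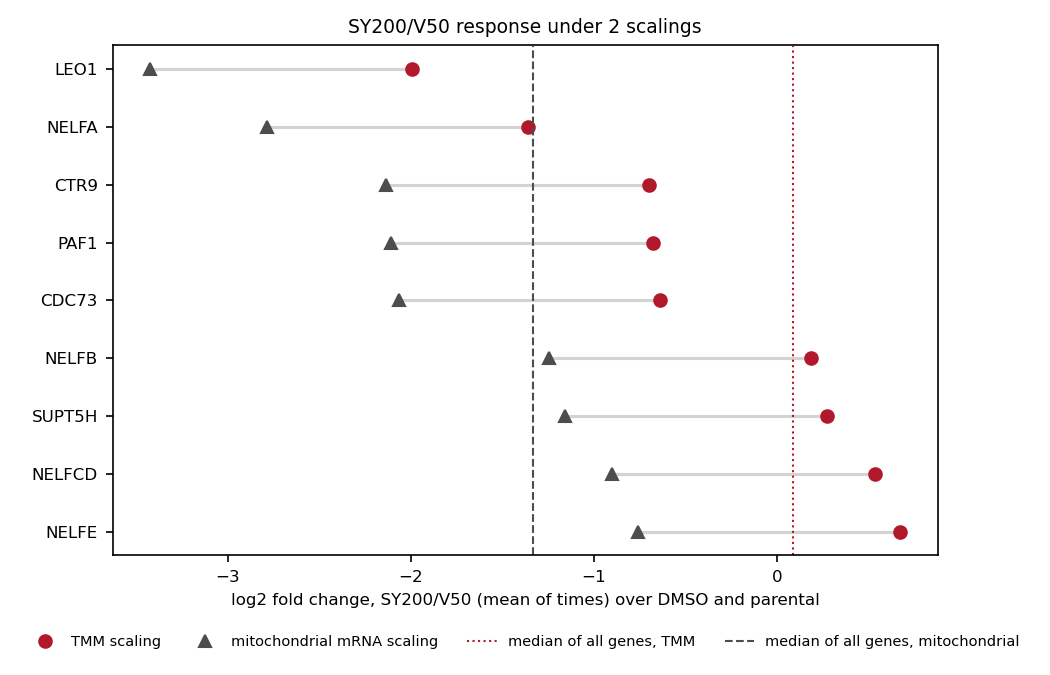
Log2 fold change of SY200/V50 (mean of 3, 6 and 12 h) over the DMSO and parental libraries for 9 genes, with circles for TMM scaling, triangles for scaling to mitochondrial mRNAs, and vertical lines at the median of all genes on each scale. Triangles lie below 0 for every gene, while the order of the genes and their side of the median of all genes (0.09 and -1.33) are alike on both scales.

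LEO1 encodes a subunit of the PAF complex that pairs with PAF1. It lies on chromosome 15 at 51938025 to 51971806, minus strand (GRCh38, GENCODE 29), and spans 33.8 kb. In MDA-MD-468 it had 16.8, 6.65 and 5.64 CPM after 3, 6 and 12 h of SY200/V50, against 28.7 (DMSO) and 30.2 CPM (parental). In MDA-MD-231 it had 28.8, 9.31 and 2.00 CPM after 3, 6 and 12 h of SY200/V50, the last from 26 reads, against 44.8 (DMSO) and 41.7 CPM (parental). Every SY200/V50 library was below both controls of its line, and the levels were lower at each later time in both lines. The mean change was -1.99 ± 0.24 (edgeR, BH-adjusted p = 6.65e-06), and 3.89% of all genes fell further. By time, LEO1 was called at 6 h (-2.18 ± 0.36, adjusted p = 0.000368) and at 12 h (-3.11 ± 0.39, adjusted p = 9.72e-06). The 12 h value was -2.36 without the 12 h library of MDA-MD-231 and -4.63 without that of MDA-MD-468, and was called in both fits.

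LEO1 under V50 alone had its lowest level at 6 h in both lines. In MDA-MD-468 it had 16.6, 12.3 and 18.8 CPM at 3, 6 and 12 h of V50, against 28.7 (DMSO) and 30.2 CPM (parental). In MDA-MD-231 it had 33.4, 11.2 and 35.0 CPM, against 44.8 (DMSO) and 41.7 CPM (parental). The fall was called at 6 h (-1.57 ± 0.35, adjusted p = 0.00484) and as the mean of the times (-0.87 ± 0.24, adjusted p = 0.0151). The 6 h call rested on the MDA-MD-231 library, without which it was -1.27 with an adjusted p of 0.126, and the mean was lost without that library (-0.77, adjusted p = 0.0503) or without the 3 h V50 library of MDA-MD-468 (-0.79, adjusted p = 0.0509). Under SY200 alone LEO1 had 17.9, 21.2 and 24.3 CPM in MDA-MD-468 and 30.4, 34.3 and 35.4 CPM in MDA-MD-231, all below the controls of the line, but the mean change of -0.43 ± 0.24 did not pass (adjusted p = 0.376).

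NELFA encodes the NELF subunit that contacts the polymerase. The gene lies on chromosome 4 at 1982714 to 2041903, minus strand, and spans 59.2 kb. After 3, 6 and 12 h of SY200/V50 it had 13.7, 10.7 and 8.27 CPM in MDA-MD-468, against 23.2 (DMSO) and 26.1 CPM (parental). The same times gave 18.7, 7.17 and 3.54 CPM in MDA-MD-231, against 22.6 (DMSO) and 25.4 CPM (parental). As for LEO1, no treated library reached the controls of its line and each later time was lower. The mean change was -1.36 ± 0.21 (edgeR, adjusted p = 5.95e-05), and the change was called at 6 h (-1.45 ± 0.31, adjusted p = 0.00178) and 12 h (-2.05 ± 0.32, adjusted p = 6.55e-05). Without the 6 h SY200/V50 library of MDA-MD-231 the 6 h value was -1.23 with an adjusted p of 0.0534. The 12 h value was -1.58 without the 12 h library of MDA-MD-231 and -2.94 without that of MDA-MD-468.

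V50 alone took NELFA to 12.97, 9.72 and 18.8 CPM at 3, 6 and 12 h in MDA-MD-468 and to 20.4, 6.58 and 23.7 CPM in MDA-MD-231. The 12 h level in MDA-MD-231 lay between the DMSO and parental levels, and the 6 h level was the lowest of the 3 times in both lines. The fall was called at 6 h (-1.59 ± 0.31, adjusted p = 0.00233) and as the mean (-0.77 ± 0.21, adjusted p = 0.0147). Without the MDA-MD-231 library the 6 h value was -1.36 with an adjusted p of 0.0773, and without the 3 h V50 library of MDA-MD-468 the mean was -0.66 with an adjusted p of 0.0505. With SY200, NELFA had 16.4, 21.5 and 24.7 CPM in MDA-MD-468 and 15.8, 17.4 and 23.7 CPM in MDA-MD-231, and the mean change of -0.31 ± 0.21 did not pass (adjusted p = 0.478).

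**Figure D2:**
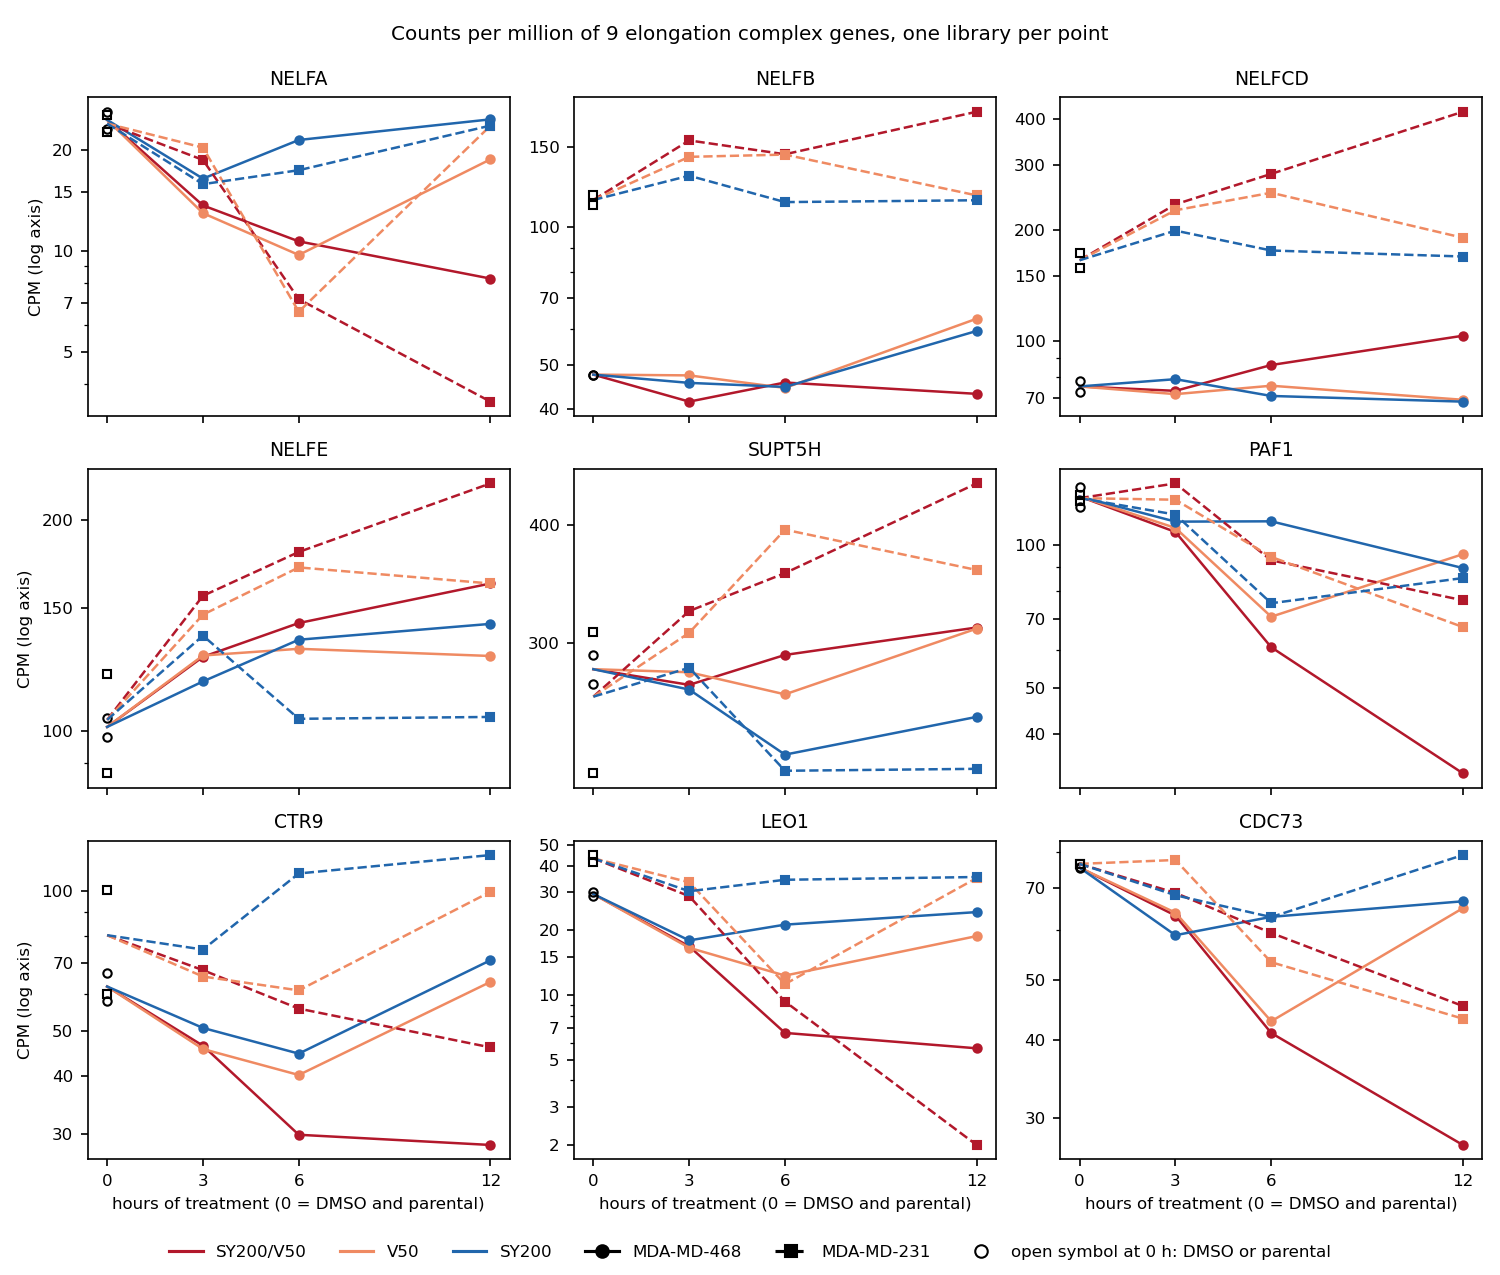
CPM (log axis) of 9 genes against hours of treatment, 1 library per point, with circles and solid lines for MDA-MD-468, squares and dashed lines for MDA-MD-231, colours for the treatment and open symbols at 0 h for DMSO and parental. LEO1 and NELFA fall at each time under SY200/V50 (to 2.00 and 3.54 CPM in MDA-MD-231), have their lowest V50 level at 6 h, and NELFCD and NELFE climb under SY200/V50.

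PAF1 encodes the subunit that names its complex. It lies on chromosome 19 at 39385852 to 39391195, minus strand, and spans 5.3 kb. In MDA-MD-468 it had 107, 60.9 and 32.996 CPM after 3, 6 and 12 h of SY200/V50, against 133 (DMSO) and 121 CPM (parental). In MDA-MD-231 it had 135, 92.9 and 76.5 CPM, against 124 (DMSO) and 128 CPM (parental). The 3 h library of MDA-MD-231 was above both controls and the later ones were below them. The mean change was -0.68 ± 0.19 (edgeR, adjusted p = 0.00739), with -0.73 ± 0.27 at 6 h (adjusted p = 0.0418) and -1.23 ± 0.27 at 12 h (adjusted p = 0.00138). The 6 h call was lost without any 1 of 5 libraries: the 6 h SY200/V50 library or the parental library of MDA-MD-231, or the 6 h SY200/V50, DMSO or parental library of MDA-MD-468, with values of -0.50 to -1.01. The 12 h value was -1.93 without the 12 h library of MDA-MD-231 and -0.91 without that of MDA-MD-468, called in both fits. SY200 alone left PAF1 below both controls of the line in every library. MDA-MD-231 libraries with SY200 had 75.4 to 116 CPM, and those of MDA-MD-468 had 89.5 to 112 CPM. The mean change under SY200 of -0.36 ± 0.19 was not called (edgeR, adjusted p = 0.350). Averaged over the times, MDA-MD-231 had 102 CPM with SY200/V50, 92.3 with SY200 and 95.5 with V50. The MDA-MD-468 averages were 66.9, 105 and 91.7 CPM in that order. PAF1 also lay below both controls at 6 and 12 h of V50 (70.6 and 95.7 CPM in MDA-MD-468, 94.5 and 67.2 CPM in MDA-MD-231). The mean change under V50 of -0.45 ± 0.19 was not called (adjusted p = 0.0956). It was called without the 12 h SY200/V50 library of either line (-0.50, adjusted p = 0.00715) or the 12 h V50 library of MDA-MD-468 (-0.60, adjusted p = 0.0402).

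CDC73 encodes parafibromin, a subunit known as a tumour suppressor of the parathyroid. The gene lies on chromosome 1 at 193121800 to 193254815, plus strand, and with 133.0 kb is the longest of the 10. It had 63.3, 41.0 and 27.2 CPM at 3, 6 and 12 h of SY200/V50 in MDA-MD-468, against 75.5 (DMSO) and 75.7 CPM (parental). The MDA-MD-231 libraries held 68.8, 59.4 and 45.4 CPM, against 76.5 (DMSO) and 76.7 CPM (parental). The controls of CDC73 hardly differed within or between lines, and every SY200/V50 library was below them. Over the times it changed by -0.64 ± 0.15 (edgeR, adjusted p = 0.00181), with -0.61 ± 0.20 at 6 h (adjusted p = 0.027) and -1.09 ± 0.21 at 12 h (adjusted p = 0.000419). The 6 h value was -0.83 without the MDA-MD-231 library of that time (adjusted p = 0.0542) and -0.44 without the MDA-MD-468 library (adjusted p = 0.282). V50 alone gave 64.0, 42.9 and 65.1 CPM in MDA-MD-468 and 77.7, 53.3 and 43.3 CPM in MDA-MD-231, with a mean change of -0.42 ± 0.15 (adjusted p = 0.0491) and -0.67 ± 0.20 at 6 h (adjusted p = 0.0258). The mean call under V50 was lost when any 1 of 15 libraries was left out (-0.31 to -0.45 in those fits, adjusted p up to 0.112), and the 6 h call without either 6 h V50 library (-0.76 without MDA-MD-231 and -0.61 without MDA-MD-468).

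CTR9 encodes the scaffold of the PAF complex and lies on chromosome 11 at 10750987 to 10801625, plus strand. Its last 500 bases overlap exons of EIF4G2 on the other strand over 463 bases, and the strand setting of the counting is not given in the sources used here, so reads of the 2 genes may be mixed. In MDA-MD-468 CTR9 had 46.5, 29.9 and 28.5 CPM at 3, 6 and 12 h of SY200/V50, against 66.7 (DMSO) and 57.9 CPM (parental). In MDA-MD-231 it had 67.6, 55.9 and 46.1 CPM, against 101 (DMSO) and 60.01 CPM (parental). The 3 h library of MDA-MD-231 lay between the controls, which were far apart, and the other 5 lay below both. Averaged over time, the change was -0.70 ± 0.15 (edgeR, adjusted p = 0.00114), with -0.79 ± 0.21 at 6 h (adjusted p = 0.00882) and -0.97 ± 0.22 at 12 h (adjusted p = 0.00137). Without the 6 h SY200/V50 library of MDA-MD-468 the 6 h value was -0.67 with an adjusted p of 0.118. The mean change of -0.24 ± 0.15 under V50 was not called (adjusted p = 0.262), but was -0.41 with an adjusted p of 0.0416 without the parental library of MDA-MD-231.

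NELFE encodes the RNA-binding subunit of NELF and lies on chromosome 6 at 31952087 to 31959110, minus strand. Its levels were higher under SY200/V50 in every library than in both controls of the line. MDA-MD-468 had 128, 143 and 163 CPM at 3, 6 and 12 h, against 98.3 (DMSO) and 105 CPM (parental). MDA-MD-231 had 156, 180.3 and 226 CPM, against 87.1 (DMSO) and 121 CPM (parental). Over the times it changed by 0.67 ± 0.14 (edgeR, adjusted p = 0.00104), with 0.65 ± 0.19 at 6 h (adjusted p = 0.0125) and 0.91 ± 0.18 at 12 h (adjusted p = 0.000654). Without the 6 h SY200/V50 library of MDA-MD-231 the 6 h value was 0.53 with an adjusted p of 0.161.

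NELFE under V50 had 128, 131 and 128 CPM in MDA-MD-468 and 147, 171 and 163 CPM in MDA-MD-231, again above both controls of the line at every time. Averaged over time, the change was 0.49 ± 0.14 (edgeR, adjusted p = 0.0224), and the 6 h change was 0.55 ± 0.19 (adjusted p = 0.0409). The mean call was lost without the DMSO library of MDA-MD-231 (0.39, adjusted p = 0.0876), its V50 libraries of 12 h (0.44, adjusted p = 0.0611) or 6 h (0.44, adjusted p = 0.0701), or the DMSO library of MDA-MD-468 (0.48, adjusted p = 0.0535). The 6 h call was lost when any 1 of 12 libraries was left out, with values of 0.40 to 0.67. SY200 alone gave 118, 135 and 142 CPM in MDA-MD-468 and 137, 104 and 105 CPM in MDA-MD-231, and the mean change of 0.27 ± 0.14 did not pass (adjusted p = 0.348).

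NELFCD encodes the C and D forms of a NELF core subunit and lies on chromosome 20 at 58981208 to 58995133, plus strand. In MDA-MD-468 it had 73.2, 86.0 and 103 CPM at 3, 6 and 12 h of SY200/V50, against 72.5 (DMSO) and 77.9 CPM (parental). In MDA-MD-231 it had 234, 283 and 418 CPM, against 157 (DMSO) and 173 CPM (parental). The rise was present from 3 h in MDA-MD-231, while the 3 h library of MDA-MD-468 lay between its controls. Over the times it changed by 0.54 ± 0.13 (edgeR, adjusted p = 0.00248), with 0.48 ± 0.17 at 6 h (adjusted p = 0.0344) and 0.91 ± 0.17 at 12 h (adjusted p = 0.000259). The 6 h call was lost when any 1 of 8 libraries was left out, with values of 0.35 to 0.59, and the 12 h value was 0.59 (adjusted p = 0.0108) without the 12 h SY200/V50 library of MDA-MD-231. Under V50 the mean change of 0.17 ± 0.13 did not pass (adjusted p = 0.347).

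NELFB encodes another core subunit of NELF and lies on chromosome 9 at 137255173 to 137273546, plus strand. It had 41.6, 45.8 and 43.2 CPM at 3, 6 and 12 h of SY200/V50 in MDA-MD-468, against 47.6 CPM in DMSO and in parental cells alike. In MDA-MD-231 it had 155, 145 and 179 CPM, against 112 (DMSO) and 117 CPM (parental). On the TMM scale the lines thus lay on opposite sides of their controls, and the mean change over both, 0.18 ± 0.15, did not pass (edgeR, adjusted p = 0.334).

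SUPT5H encodes SPT5, the DSIF subunit that CDK9 phosphorylates, and lies on chromosome 19 at 39436156 to 39476670, plus strand. Its SY200/V50 libraries held 271, 291 and 311 CPM at 3, 6 and 12 h in MDA-MD-468, against 291 (DMSO) and 271 CPM (parental), and 324, 356 and 443 CPM in MDA-MD-231, against 308 (DMSO) and 218 CPM (parental). The mean change of 0.27 ± 0.13 was not called (edgeR, adjusted p = 0.0875), although DESeq2 called it, and the 12 h change of 0.46 ± 0.17 was called (adjusted p = 0.0314). That 12 h call was lost when any 1 of 7 libraries was left out, among them the 12 h SY200/V50 library of MDA-MD-231, and the values over the libraries left out ran down to 0.23 without that library. Under V50 the mean change was 0.22 ± 0.13 (adjusted p = 0.228).

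SUPT4H1, which encodes SPT4, had 13 to 18 reads in the SY200/V50 libraries, 9 to 19 with V50, 9 to 29 with SY200 and 15 to 25 in DMSO and parental cells. The last 500 bases of the gene share 469 exon bases on the same strand with the readthrough gene AC004687.2 of GENCODE 29. With so few reads no direction was read from it.

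Upstream sequences are shown for LEO1 and PAF1, which fell under SY200/V50, and for NELFB and SUPT5H, which did not. Each is the longest stretch, within the 250 bases before the RefSeq start site, that holds no annotated exon, 5′ to 3′ on the strand of the gene (RefSeq, GRCh38.p14), with motif matches in capitals. LEO1 is at chr15:51971807-51972028 on the minus strand, PAF1 at chr19:39391196-39391302 on the minus strand, NELFB at chr9:137255077-137255172 on the plus strand and SUPT5H at chr19:39445332-39445440 on the plus strand.
LEO1: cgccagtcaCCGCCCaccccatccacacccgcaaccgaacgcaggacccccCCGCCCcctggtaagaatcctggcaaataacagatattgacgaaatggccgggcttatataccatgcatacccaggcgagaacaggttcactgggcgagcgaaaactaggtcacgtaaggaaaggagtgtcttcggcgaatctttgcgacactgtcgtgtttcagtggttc
PAF1: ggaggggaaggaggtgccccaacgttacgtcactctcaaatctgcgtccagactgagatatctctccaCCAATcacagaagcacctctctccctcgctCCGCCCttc
NELFB: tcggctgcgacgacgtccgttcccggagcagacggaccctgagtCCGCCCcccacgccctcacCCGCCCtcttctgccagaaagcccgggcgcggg
SUPT5H: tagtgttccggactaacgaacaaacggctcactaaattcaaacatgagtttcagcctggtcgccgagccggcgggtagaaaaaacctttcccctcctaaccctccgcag

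The motifs searched on both strands of the whole 250 bases were 6. These were SP1 with the letters GGGCGG, the ETS motif as CCGGAAGT, the CCAAT box by the letters of its name, the YY1 motif as AAGATGGC, the TATA box with the letters TATAAA, and the palindromic core of NRF1. Of 35116 windows of that length in the table of human promoters, 42.6% held SP1, 32% CCAAT, 10.7% TATA, 3.42% ETS, 1.36% YY1 and 1.03% NRF1. LEO1 had 2 SP1 matches, PAF1 had 2 SP1 and 3 CCAAT matches, NELFB had 7 SP1 matches and 1 NRF1 match, and SUPT5H had 1 SP1 and 1 YY1 match. NELFE had 3 SP1 and 2 ETS matches, and NELFCD had 4 SP1 matches. NELFA had none of the 6 motifs, and CDC73 was not searched. CTR9 had 1 SP1 and 1 ETS match. The start site used for each gene searched lies inside its GENCODE span, so the windows hold bases annotated as exon. All 250 bases are exon for NELFA (2008975 to 2009224 on chromosome 4) and CTR9, 243 for NELFE and 212 for NELFCD. The windows shown in part hold 154 exon bases for NELFB, 143 for PAF1, 141 for SUPT5H and 28 for LEO1. A match is a description of letters only.

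By time, no member was called at 3 h of SY200/V50 (background 7.54% of all genes in either direction), 7 were called at 6 h and 8 at 12 h. At 6 h these were 2 higher and 5 lower, against 17.3% and 17.5% of all genes. At 12 h they were 3 higher and 5 lower, against 25.9% and 23.7%. V50 gave 1 higher and 3 lower at 6 h, against 11.9% and 11.5% of all genes, and none at 3 h (background 4.1%) or 12 h (background 15.2%). SY200 gave none at 3, 6 or 12 h, against 0.423%, 0.264% and 2.43%. At an unadjusted p under 0.05 there was 1 member each at 3 h of SY200/V50 and of V50, against 4427 and 3972 of 18911 genes. There were 3 at 12 h of V50, against 5797 genes. There were none under SY200, against 2322, 2310 and 3372 genes at 3, 6 and 12 h. DESeq2 called none in any of these 6 comparisons.

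As the mean of the times, V50 gave 1 higher (NELFE) and 3 lower (NELFA, LEO1 and CDC73) of 10, against 10.4% and 11.9% of all genes. SY200 gave none in either direction with edgeR or DESeq2, against 0.968% higher and 1.02% lower of all genes. At an unadjusted p under 0.05 it also gave none, against 3195 of 18911 genes. The plot of the mean changes shows each gene's 3 values side by side.

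**Figure D3:**
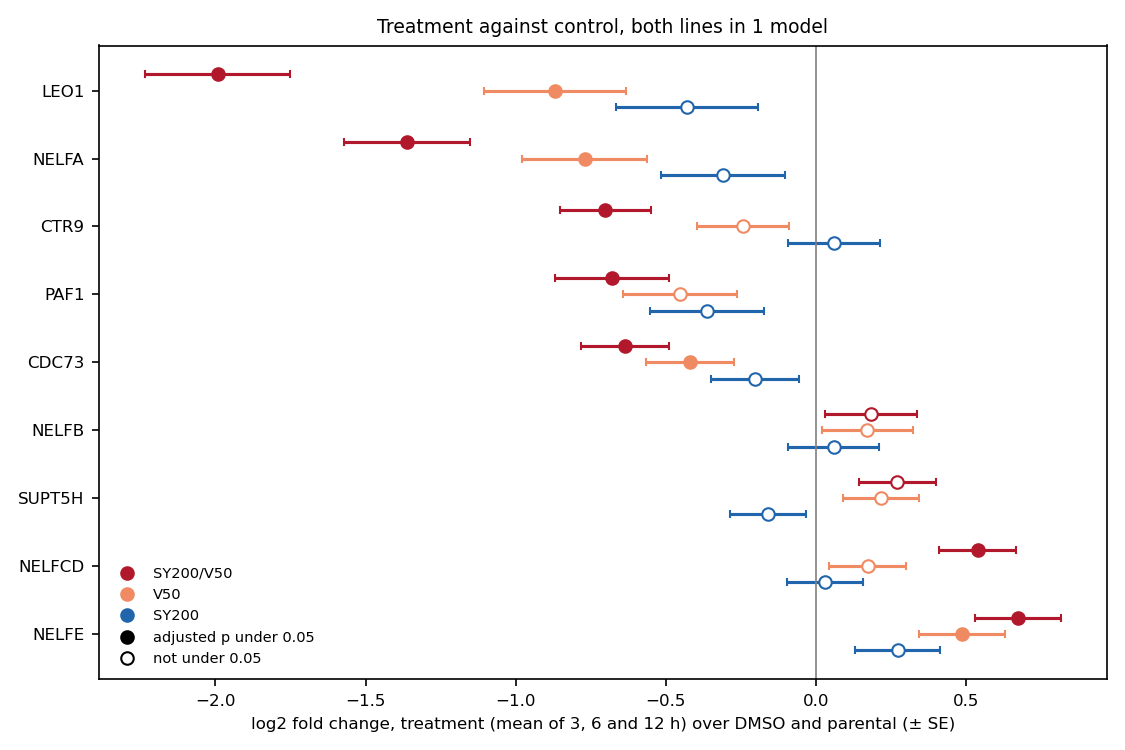
Log2 fold change ± SE of each treatment (mean of 3, 6 and 12 h) over the DMSO and parental libraries for 9 genes, with filled circles at an adjusted p under 0.05. SY200/V50 lies farthest from 0 for LEO1 (-1.99) and NELFA (-1.36), V50 lies between SY200/V50 and SY200 for these genes, and no SY200 circle is filled.

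The combination went further than each single agent for some members. Against V50 alone, as the mean of the times, LEO1 was lower by a log2 change of -1.12 ± 0.22 (edgeR, adjusted p = 0.00279), CTR9 by -0.46 ± 0.14 (adjusted p = 0.0274) and NELFA by -0.59 ± 0.19 (adjusted p = 0.04), and NELFCD was higher by 0.37 ± 0.11 (adjusted p = 0.0313). That is 1 higher and 3 lower of 10, against 7.52% and 12.4% of all genes. The LEO1 call held without any 1 library, but each of the other 3 calls was lost without 1 of 8 or 9 libraries, with NELFA at -0.41 (adjusted p = 0.15) without the 12 h SY200/V50 library of MDA-MD-231. Against SY200 alone, 3 were higher and 4 lower, against 23.8% and 22.2% of all genes: LEO1 (-1.56 ± 0.22), NELFA (-1.05 ± 0.19), CTR9 (-0.76 ± 0.14) and CDC73 (-0.44 ± 0.13) fell, and NELFCD (0.51 ± 0.11), SUPT5H (0.43 ± 0.11) and NELFE (0.40 ± 0.13) rose. Of these calls, CDC73 was lost without the 6 h SY200/V50 library of MDA-MD-468 (-0.38, adjusted p = 0.0519), and NELFE without the SY200 libraries of 12 h (0.30, adjusted p = 0.0719) or 6 h (0.31, adjusted p = 0.0724) or the 6 h SY200/V50 library (0.36, adjusted p = 0.0525) of MDA-MD-231. PAF1 was called neither against V50 nor against SY200, so its fall is not read as an effect beyond that of a single agent. The comparisons with V50 and with SY200 share the SY200/V50 libraries.

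Between 3 and 12 h of SY200/V50 the falls grew. LEO1 was lower at 12 h than at 3 h by -2.42 ± 0.41 (edgeR, adjusted p = 0.00114), NELFA by -1.47 ± 0.35 (adjusted p = 0.00773), PAF1 by -1.16 ± 0.30 (adjusted p = 0.0139) and CDC73 by -0.88 ± 0.23 (adjusted p = 0.0146), and NELFCD was higher by 0.69 ± 0.20 (adjusted p = 0.0234). That is 1 higher and 4 lower of 10, against 9.57% and 8.73% of all genes. Without the 12 h library of MDA-MD-231, LEO1 was at -1.65, PAF1 at -1.84, NELFA at -0.96 (adjusted p = 0.102) and NELFCD at 0.39 (adjusted p = 0.187). Without that of MDA-MD-468, LEO1 was at -3.91, NELFA at -2.32 and PAF1 at -0.82. Calls were also lost in fits without a 3 h library, which leave 1 library at that time. Without that of MDA-MD-231 these were NELFA (-1.16), PAF1 (-1.06), CDC73 (-0.92) and NELFCD (0.78). Without that of MDA-MD-468 they were CDC73 (-0.87) and NELFCD (0.58). CDC73 and NELFCD thus lay farther from 0 without the MDA-MD-231 library than with it. No member was called between 3 and 12 h of V50 (background 12.8%) or of SY200 (background 1.95%) with edgeR or DESeq2. At an unadjusted p under 0.05 there was 1 member in each, against 5326 and 3972 of 18911 genes.

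The members varied together across the 18 treated libraries in a few groups. As a description over log2 deviations from each line's controls, which share the controls and the line, LEO1 and NELFA had a Pearson's r of 0.94 and PAF1 and CDC73 0.87. NELFE and SUPT5H had 0.86, NELFCD and SUPT5H 0.84, and NELFCD and NELFE 0.82. LEO1 and NELFCD had -0.79. The pairs closest in pattern thus came from different complexes as well as from the same one. Of the 9790 genes with a mean of at least 10 CPM, those most like LEO1 were PPP1R8 (0.98), GOLPH3 (0.97) and CDK7 (0.97), and those most like NELFE were MRPL11 (0.97), HRAS (0.96) and SNU13 (0.96).

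**Figure D4:**
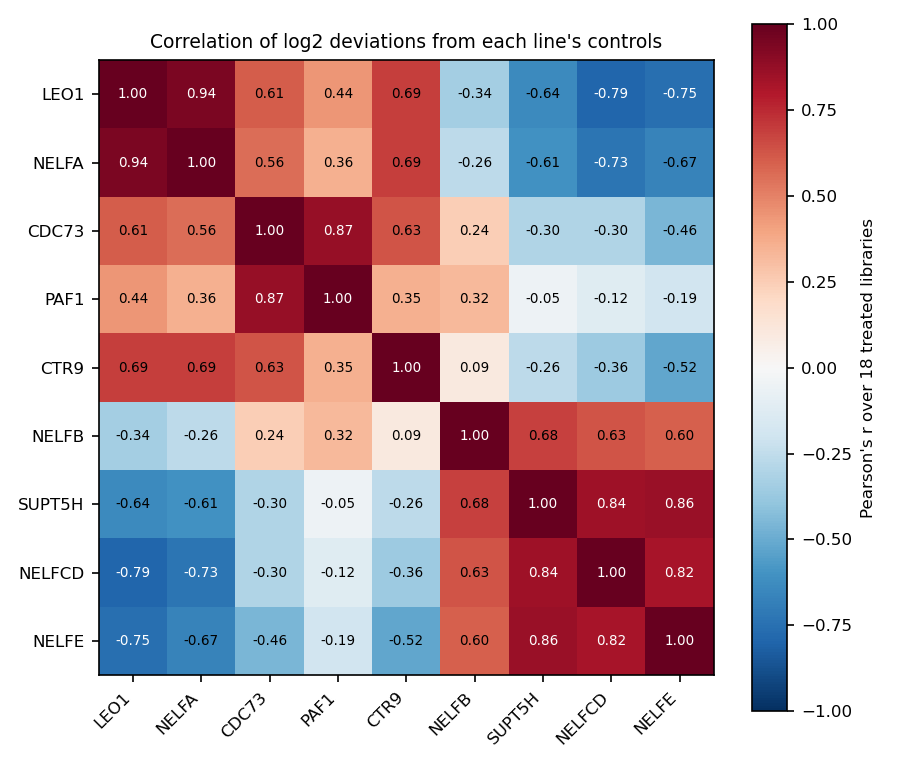
Pearson's r between 9 genes over the 18 treated libraries of the inhibitor experiment, from log2 deviations of each library from the controls of its line. LEO1 and NELFA (0.94) form 1 corner, SUPT5H, NELFCD and NELFE (0.82 to 0.86) the other, with negative values between them.

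The other genes of the elongation pathway came from lists chosen with earlier results of these data known. Of the remaining PAF subunits, WDR61 was called higher (0.43 ± 0.13, edgeR, adjusted p = 0.00893) and RTF1 lower (-0.46 ± 0.13, adjusted p = 0.00721) under SY200/V50. Of 17 genes of P-TEFb, its 7SK inhibitor and the super elongation complex, 16 were tested, none was called higher and 10 lower, with a median of -0.96, against 24% and 24.2% and a median of 0.09 over all genes. The 4 of them with the smallest adjusted p were MEPCE, the 7SK capping enzyme (-2.64 ± 0.17), the P-TEFb inhibitors HEXIM1 (-2.31 ± 0.16) and HEXIM2 (-2.15 ± 0.30), and MLLT3 of the super elongation complex (-1.58 ± 0.21).

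Of 11 other elongation factors and histone chaperones, 7 were called higher and 4 lower, with a median of 0.43, against the same 24% and 24.2% of all genes. The elongin subunits ELOB (0.90 ± 0.12) and ELOC (0.74 ± 0.11) and HTATSF1 (0.58 ± 0.10) rose, and IWS1, a partner of SPT6, fell (-1.60 ± 0.20). Of 19 Integrator and termination genes, 4 were called higher and 9 lower, with a median of -0.28, and the leading ones were the phosphatase subunit PPP1R10 (-2.63 ± 0.28) and the Integrator subunits INTS5 (-1.85 ± 0.22), INTS6 (-1.14 ± 0.18) and INTS7 (-0.59 ± 0.11). Under V50 the lists gave 5 lower of the 16 P-TEFb genes and 1 higher and 6 lower of the 19 Integrator genes, against 10.4% higher and 11.9% lower of all genes, and under SY200 1 and 2 lower, against 1.02% lower. The 11 other elongation factors gave 5 higher and 1 lower under V50, and none under SY200.

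Before treatment the lines differed in 2 members. NELFB had 47.6 CPM in both controls of MDA-MD-468, against 112 (DMSO) and 117 CPM (parental) in MDA-MD-231, a log2 difference of -1.27 ± 0.20 (edgeR, adjusted p = 7.99e-05). NELFCD had 72.5 (DMSO) and 77.9 CPM (parental) in MDA-MD-468, against 157 (DMSO) and 173 CPM (parental) in MDA-MD-231, a difference of -1.14 ± 0.14 (adjusted p = 8.10e-06). None was higher in MDA-MD-468, against 28.8% of all genes higher and 25% lower.

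The difference between the lines in the response to a treatment was tested for each gene. None of the 18911 genes was called for SY200/V50, V50 or SY200 (background 0% in each) with edgeR, while 3009, 1873 and 1048 had an unadjusted p under 0.05. Of the members, 4, 1 and 0 had an unadjusted p under 0.05, and DESeq2 called 1 member for SY200/V50, against 3.44% of the genes it gave an adjusted p. That member was NELFCD, with a response in MDA-MD-468 minus that in MDA-MD-231 of -0.67 ± 0.18 (edgeR, adjusted p = 0.126). PAF1 (-0.73 ± 0.30, adjusted p = 0.260), NELFB (-0.60 ± 0.25, adjusted p = 0.270) and SUPT5H (-0.45 ± 0.21, adjusted p = 0.313) were the others. LEO1 (0.47 ± 0.49) and NELFA (0.36 ± 0.43) had errors as large as their differences.

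DMSO and parental cells were compared over both lines. No member was called with edgeR or DESeq2, against 0.037% of all genes. None had an unadjusted p under 0.05, against 1540 of 18911 genes. CTR9 (0.45 ± 0.22), SUPT5H (0.28 ± 0.19) and NELFE (-0.27 ± 0.21) had the widest gaps.

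In the knockout experiment no member was called against the empty vector with edgeR or DESeq2. The backgrounds were 11.3% of 16783 genes for CDK7/9 KO, 8.16% for CDK9 KO, 0.0238% for CDK7 KO and 0.352% for CDK1 KO. At an unadjusted p under 0.05 there were 5164, 4717, 2887 and 3781 of 16783 genes for CDK7/9, CDK9, CDK7 and CDK1 KO. Of the members there were 3 for CDK7/9 KO, 3 for CDK9 KO, 0 for CDK7 KO and 1 for CDK1 KO. These counts turned on the empty vector libraries: without that of 72 h, CDK7/9 KO gave 6 calls (41.8% of all genes called in that fit), CDK9 KO 5 (39.8%), CDK7 KO 4 (35.5%) and CDK1 KO 7 (39.7%). Without that of 96 h, CDK7/9 KO gave 2 (14.7%) and CDK9 KO 3 (12.2%). The empty vector library of 96 h had the highest LEO1 (50.4 CPM), CDC73 (91.0 CPM), CTR9 (81.7 CPM) and PAF1 (129.5 CPM) and the lowest NELFB (80.2 CPM) of the experiment, and also its lowest mitochondrial share, 2.60%. The mitochondrial share was 5.04% to 5.98% in the 4 libraries of CDK7/9 KO and CDK9 KO, against 2.60% to 4.01% in the other 6 that were tested and 5.05% in the parental library. On the mitochondrial scale 9 of 10 members were called lower in CDK7/9 KO and 9 in CDK9 KO, against 65.9% and 67.6% of all genes. The part of the mitochondrial share in the results on TMM-scaled counts was not tested.

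LEO1 had 33.5 and 31.9 CPM in CDK7/9 KO at 72 and 96 h and 33.6 and 29.6 CPM in CDK9 KO, against 36.9 and 50.4 CPM with the empty vector. All 4 were below both empty vector libraries, and the change was -0.41 ± 0.15 in CDK7/9 KO (edgeR, adjusted p = 0.102) and -0.46 ± 0.15 in CDK9 KO (adjusted p = 0.0847). NELFA had 22.8 and 22.9 CPM in CDK7/9 KO and 19.7 and 25.3 CPM in CDK9 KO, against 29.2 and 23.8 CPM with the empty vector, so that the groups overlapped. SUPT5H had 345 and 362 CPM in CDK7/9 KO and 322 and 354 CPM in CDK9 KO, against 311 and 301 CPM with the empty vector, and the change of 0.21 ± 0.09 in CDK7/9 KO did not pass (adjusted p = 0.138). CDC73 had 72.3 and 66.4 CPM in CDK7/9 KO and 69.99 and 68.6 CPM in CDK9 KO, against 73.5 and 91.0 CPM with the empty vector, all below both. CDK1 KO had 33.8 to 39.3 CPM of LEO1, 349 to 352 CPM of SUPT5H and 69.3 to 76.5 CPM of CDC73. CDK7 KO had 36.4 to 41.2, 319 to 329 and 79.7 to 82.4 CPM in the same order. SUPT5H in CDK1 KO thus lay within the range of the CDK7/9 KO and CDK9 KO libraries, as did the lower CDC73 value of CDK1 KO.

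The 4 libraries with CDK9 targeted (CDK7/9 KO and CDK9 KO) were also set against the 6 with CDK9 intact (CDK7 KO, CDK1 KO and empty vector). NELFE was called higher and PAF1 lower, 1 each of 10, against 11.5% and 11.2% of all genes. NELFE had 132 and 149 CPM in CDK7/9 KO and 139.6 and 135 CPM in CDK9 KO, against 107 to 128 CPM in the intact libraries, with no overlap and a change of 0.27 ± 0.06 (edgeR, adjusted p = 0.0103). PAF1 had 109 and 108 CPM in CDK7/9 KO and 104 and 97.6 CPM in CDK9 KO, against 114 to 129.5 CPM, also with no overlap. Its change was -0.20 ± 0.06 (edgeR, adjusted p = 0.0426). The share of all genes with no overlap between these groups was not computed. The parental library of the experiment, which entered no test, had 151 CPM of NELFE, 106 CPM of PAF1 and 30.9 CPM of LEO1, and so lay on the side of the CDK9-targeted libraries for all 3 genes. LEO1 (-0.30 ± 0.10, adjusted p = 0.0526), NELFA (-0.26 ± 0.09, adjusted p = 0.0726), CDC73 (-0.18 ± 0.07, adjusted p = 0.104) and CTR9 (-0.17 ± 0.08, adjusted p = 0.142) did not pass. DESeq2 also made 2 calls, against 19.2% of the genes it gave an adjusted p, but they were NELFE and LEO1 (-0.30, adjusted p = 0.0449), and PAF1 did not pass (-0.20, adjusted p = 0.056). In edgeR LEO1 was also called with no block for the time (adjusted p = 0.046) and with no filter on low counts (adjusted p = 0.00537), and NELFA with no filter (adjusted p = 0.0325). On the mitochondrial scale NELFE was -0.32 and not called, and 8 of 10 members, LEO1, NELFA and PAF1 among them, were called lower, against 72.7% of all genes. With CDK7 targeted against CDK7 intact no member was called with edgeR or DESeq2, against 0.673% of all genes. At an unadjusted p under 0.05 there was 1 member, against 2396 of 16783 genes.

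The calls of the CDK9 comparison depended on single libraries. NELFE was lost without the 96 h library of CDK1 KO (0.25, adjusted p = 0.0544), of CDK7 KO (0.26, adjusted p = 0.0521) or of CDK7/9 KO (0.23, adjusted p = 0.106), or without the 72 h library of CDK9 KO (0.23, adjusted p = 0.0742). PAF1 was lost without any 1 of the 8 knockout libraries (-0.17 to -0.24, adjusted p up to 0.206). Leaving out an empty vector library added calls for several members. LEO1, NELFA and CDC73 were called without that of 72 h (-0.39, -0.19 and -0.24) and without that of 96 h (-0.21, -0.33 and -0.13). CTR9 (-0.23) and SUPT5H (0.09) were called only without that of 72 h, and NELFB (-0.19) only without that of 96 h. Shares of all genes are not given for these fits, so the added calls are no result about the members.

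NELFB lies on the same arm of chromosome 9 as CDK9 (127785679 to 127790787, plus strand) and distal to it. Its change with CDK9 targeted was -0.12 ± 0.08 (edgeR, adjusted p = 0.283), near the median of the 164 tested genes distal to CDK9 (-0.12, 11 called higher and 40 lower, or 24.4% lower). The 421 tested genes proximal to CDK9 on that chromosome had a median of -0.06 with 12.4% lower. The part of this region in the NELFB value was not tested.

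**Figure D5:**
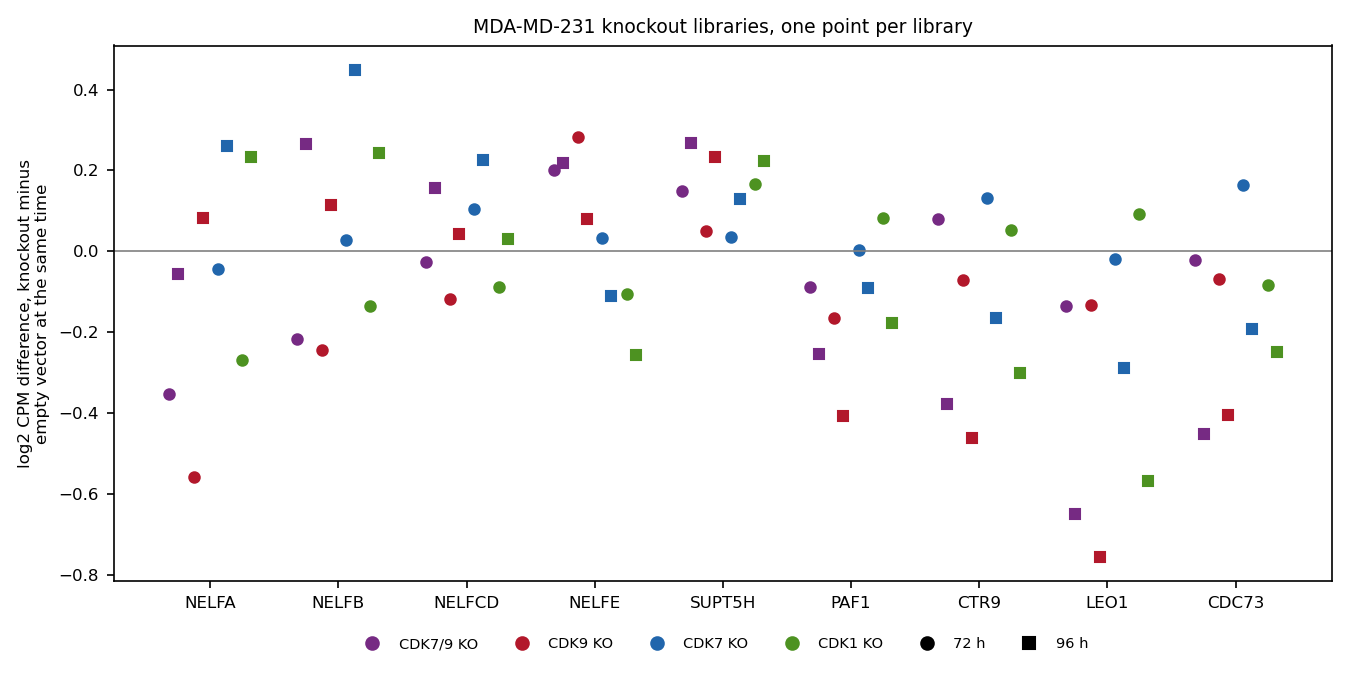
Log2 CPM difference of each knockout library from the empty vector library of the same time for 9 genes in MDA-MD-231, 1 point per library, circles for 72 h and squares for 96 h. LEO1 in CDK7/9 KO and CDK9 KO lies below 0 at both times (-0.13 and -0.65 in CDK7/9 KO), and the points of 1 genotype at 72 and 96 h often lie apart. At 96 h LEO1 lies below 0 in CDK7 KO and CDK1 KO too, as the empty vector library of 96 h had the highest LEO1 (50.4 CPM).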

How the data were processed

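The files hold whole-number read counts per gene, as deposited, for 33 libraries of 3′ mRNA sequencing. Per the submitters' processing notes, FastQC was used for quality control and STAR 2.7.10a for alignment, and the build was GRCh38. The counting tool, its annotation and its strand setting are not given in the labels. Of the 59428 entries, 698 had an Ensembl ID only. Reads next to the 3′ end are not corrected for length, so levels are compared within a gene only.

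Counts were tested with edgeR 4.0.16 (quasi-likelihood, TMM scaling, filterByExpr at 10 reads and a total of 15, R 4.3.3, limma 3.58.1). The inhibitor model held 10 conditions and the line over 22 libraries (11 residual degrees of freedom). The response of each line was tested in a second model (8 residual degrees of freedom), and DMSO against parental in another (10 residual degrees of freedom). The knockout model held genotype and time over 10 libraries (4 residual degrees of freedom). Adjusted p-values are Benjamini-Hochberg values over all genes tested, with calls under 0.05. SE is the log2 fold change divided by the root of F. The p-values measure the spread between these libraries, which may be technical. Log2 deviations used a pseudocount of 0.5 CPM. The scripts were tested on simulated data.

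Alternatives were DESeq2 1.42.0, its size factors in edgeR, scaling to 13 mitochondrial mRNAs, no filter, no block for line or time, DMSO alone as control, and each library left out. The 10 genes and the pathway lists were chosen with earlier results of these data known. All 10 are named, with up to 4 genes a list by smallest adjusted p under SY200/V50, and the 3 genes most alike for the member that rose and the member that fell most. Positions come from GENCODE 29 and promoters from RefSeq GRCh38.p14. The readthrough gene AC004687.2 was not analysed here.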

Additional observations from a re-analysis of the deposited data

Results flagged for a closer look

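NELFB stood on opposite sides of its controls in the 2 lines under SY200/V50. Relative to the controls of the line, its log2 level was -0.19, -0.06 and -0.14 at 3, 6 and 12 h in MDA-MD-468, and 0.43, 0.33 and 0.64 in MDA-MD-231. On this TMM scale every SY200/V50 library of one line was thus lower and every one of the other higher. NELFB was flagged for this pattern, and the share of all genes that show it was not computed. Scaled to mitochondrial mRNAs, the mean change of NELFB over both lines was -1.25. Its levels in each line were not computed on that scale, so the opposite sides hold for TMM scaling only. In MDA-MD-468 NELFB had 41.6 to 45.8 CPM with SY200/V50, 44.5 to 63.1 CPM with V50 and 44.8 to 59.3 CPM with SY200. The difference between the responses, MDA-MD-468 minus MDA-MD-231, was -0.60 ± 0.25 (edgeR, adjusted p = 0.270) and did not pass over all genes. NELFB was also the member with the largest difference between the untreated lines.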

How the results depend on the processing

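No paired analysis was possible because the libraries carry no replicate numbers to pair, with 1 library for each combination of line, condition and time; matching by line and by time is in the models as a block. The 7 calls for the mean of SY200/V50 held without any 1 of the 22 libraries. Scaling to mitochondrial mRNAs moved the number of members called to 10 for V50 as the mean (4 with TMM) and 5 for SY200 (0). On that scale 73.8% and 27% of all genes were lower. Over all times the number was 53 (19), with 1.41% to 83.9% of all genes lower at the single times. It was 8 for 12 h against 3 h of SY200/V50 (5), 7 for SY200/V50 against V50 (4) and 8 between the untreated lines (2). Shares of all genes are not given for these 3. The number was 8 with CDK9 targeted (2) and 9 each for CDK7/9 KO and CDK9 KO (0), against 72.7%, 65.9% and 67.6% of all genes lower. On that scale values reversed as follows. For SY200/V50 as the mean they were -0.76 for NELFE, -0.90 for NELFCD, -1.16 for SUPT5H and -1.25 for NELFB, and for V50 as the mean -0.43, -0.75, -0.70 and -0.74 in the same order. At 6 h of SY200/V50 NELFE was -0.79 and NELFCD -0.97, at 12 h NELFE was -1.11, NELFCD -1.11 and SUPT5H -1.56, and at 6 h of V50 NELFE was -0.44. NELFCD was -0.48 at 12 h against 3 h, -0.49 against SY200 and -0.15 against V50, and against SY200 NELFE was -0.60 and SUPT5H -0.57. With CDK9 targeted NELFE was -0.32 and SUPT5H -0.51. With no block for the line the calls numbered 4 for SY200/V50 as the mean (7 with the block), 0 for V50 as the mean (4), 7 over all times (19), 0 for 12 h against 3 h (5), 2 against SY200 (7) and 0 against V50 (4). With no filter they numbered 2 for SY200/V50 against V50, 4 with CDK9 targeted, and 1 each for CDK7/9 KO and CDK9 KO. DMSO alone as control left 1 call for V50, and DESeq2 made 1 call for the SY200/V50 response between lines and, with CDK9 targeted, called LEO1 in place of PAF1. Leaving out each library gave 1 to 5 calls for V50 as the mean, 1 to 6 for 12 h against 3 h of SY200/V50, 1 to 4 for SY200/V50 against V50, 0 to 1 for 12 h against 3 h of V50 (1 without the 12 h V50 library of MDA-MD-468), 0 to 7 for CDK1 KO, 0 to 4 for CDK7 KO, 0 to 5 for CDK9 KO, 0 to 6 for CDK7/9 KO, 0 to 2 with CDK7 targeted and 0 to 7 with CDK9 targeted. The cause of these shifts was not tested. Shares of all genes are not given in this paragraph for the counts with no block, with no filter, with DMSO alone as control, with DESeq2 or without 1 library. Those counts describe how the calls moved and are no result about the members. SUPT4H1 had 9 to 47 reads a library, too few to read a direction, and why they were few was not tested.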
